A study of Mus musculus with 4 samples.

Results

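The genes described here encode the MHC class II antigen-presenting molecules of the mouse and the proteins that assemble, load and switch on these molecules. The list holds 9 genes, namely H2-Aa, H2-Ab1, H2-Eb1, H2-DMa, H2-DMb1, H2-Oa, H2-Ob, Cd74 and Ciita, of 18193 genes named by the larger array. Members were found by gene symbol, which gave 16 probe sets of 45101. Of these 16, 11 lay on both array types and 5 on the larger type alone. H2-DMb1 had no probe set of its own, since the 2 probe sets that name it also name H2-DMb2.

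The study measured gene expression in granulocyte/monocyte progenitors (GMP), which were sorted by flow cytometry from mouse bone marrow. Icsbp, also named Irf8, is a transcription factor that steers these progenitors between monocytic and granulocytic fates. Icsbp-deficient GMP came from pools of at least 8 mice, with 1 preparation on a 430A array and another on a MOE430_2 array. Wild type GMP came from pools of at least 10 mice, likewise with 1 preparation on each array type. Mice of both genotypes were 10 to 16 weeks old. The strain is given for the wild type 430A preparation alone, as a mix of C57/Bl6 and S129Ola, and no class II haplotype is stated for any preparation. The same wild type 430A sample carries no genotype in its own label, and it was placed among wild type through the design text of the series. The Icsbp-deficient 430A sample was labelled from 5 µg of RNA and both MOE430_2 samples from 1 to 2 µg, with no amount stated for the wild type 430A sample. Another Icsbp-deficient preparation that the design text lists was not analysed here.

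Class II molecules are pairs of an alpha and a beta chain that carry peptides to the cell surface for CD4+ T cells. In the endoplasmic reticulum the new pair is bound by the invariant chain, Cd74, which is then cut away by lysosomal proteases, and its last fragment is exchanged for a peptide by the DM molecule under restraint by DO. B cells, dendritic cells and activated macrophages are the main class II cells. Transcription is switched on by the coactivator Ciita, which docks on factors bound to neighbouring X and Y boxes before the start of class II genes.

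Promoter windows of 250 bases before the transcript start were taken from RefSeq (build GRCm38.p6) and searched for the cores of these boxes. Of the 9 genes, 6 had a window in that table, with 7 windows in all since H2-DMa had 2. H2-Ab1, Cd74 and Ciita had none. The 3 windows below were chosen by signal. H2-Aa, on its brightest probe set, and H2-Eb1 had lower signals in Icsbp-deficient GMP on both array types. H2-Oa had a lower signal on 1 type only. All 3 windows hold the same pair of boxes. They lie on chromosome 17 at chr17:34287824-34288073 (minus strand) for H2-Aa, chr17:34305617-34305866 (plus strand) for H2-Eb1 and chr17:34092129-34092378 (plus strand) for H2-Oa. Capitals mark the X box core, GCAAC, and the Y box core, ATTGG, and each sequence runs towards the gene.
H2-Aa: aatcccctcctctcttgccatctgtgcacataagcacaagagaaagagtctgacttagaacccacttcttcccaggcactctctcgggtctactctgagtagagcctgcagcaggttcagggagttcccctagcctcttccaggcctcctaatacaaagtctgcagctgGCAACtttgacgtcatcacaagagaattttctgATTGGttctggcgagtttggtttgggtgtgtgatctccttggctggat
H2-Eb1: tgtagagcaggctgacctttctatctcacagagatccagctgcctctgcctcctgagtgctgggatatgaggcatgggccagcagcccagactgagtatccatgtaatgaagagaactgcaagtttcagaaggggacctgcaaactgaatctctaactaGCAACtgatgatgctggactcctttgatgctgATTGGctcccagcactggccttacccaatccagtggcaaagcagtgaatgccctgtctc
H2-Oa: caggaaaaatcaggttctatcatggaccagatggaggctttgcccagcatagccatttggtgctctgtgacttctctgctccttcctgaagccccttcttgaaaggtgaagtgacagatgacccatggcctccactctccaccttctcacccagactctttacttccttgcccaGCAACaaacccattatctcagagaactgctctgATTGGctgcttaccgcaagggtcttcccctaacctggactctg

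The X core began 81 bases before the start of H2-Aa, 91 before H2-Eb1, 76 before H2-Oa and 87 before H2-Ob. The Y core followed on the same strand after a gap of 28, 27, 28 and 25 bases in that order of genes. A pair of this kind, with a gap of 20 to 35 bases on the strand of the gene, was present in 0.362% of the 32851 windows in the table, and in 0.673% when either strand was allowed. The match is a description of these letters. The Y core alone was present in 33.8% of windows on either strand and the X core alone in 29.9%. The window of H2-DMb1 held a Y core 61 bases before the start and no X core of these letters. Neither window of H2-DMa held the pair. Sites of the kind bound by IRF factors were searched on both strands as GAAANNGAAA, the interferon-stimulated response element, and as GGAANNGAAA, the composite element for IRF8 with PU.1, which also ends in GAAA. These letters were in 2.98% and 2.30% of all windows and in 0 of the 7 windows of members, which says nothing of sites elsewhere.

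**Figure D1:**
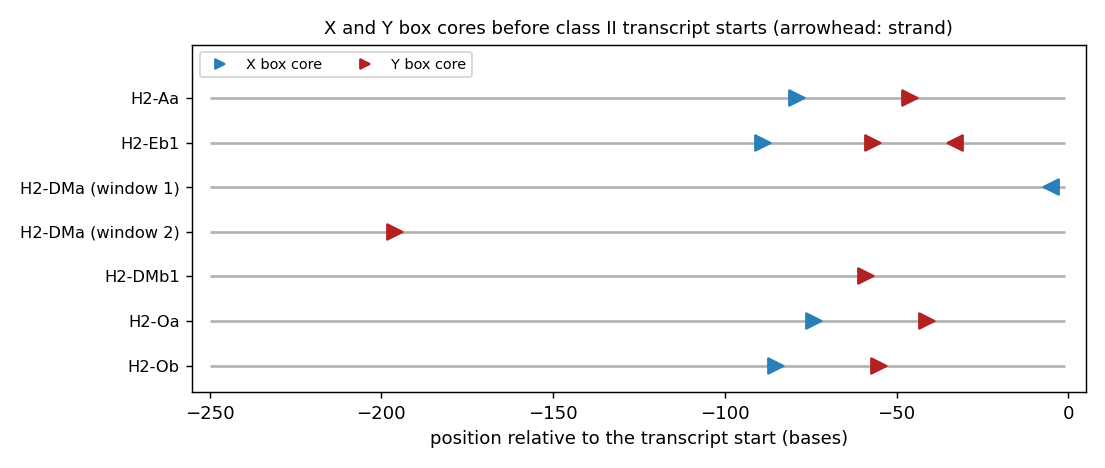
Positions of X box cores (blue) and Y box cores (red) in the 250 bases before each transcript start of the class II genes that have a window, in bases from the start, with arrowheads pointing along the strand of the match. The X and Y cores of H2-Aa, H2-Eb1, H2-Oa and H2-Ob sit at like distances, with gaps of 25 to 28 bases, and H2-DMb1 shows a Y core alone.

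Signals are given per array after scaling to a common trimmed mean of 500. Each ratio sets Icsbp-deficient against wild type GMP as a difference of log2(signal + 50), which understates the change of dim probe sets, and each array type gave 1 ratio. The mean of the 2 ratios was tested with limma over 13576 probe sets, and ± is the moderated standard error (n = 2 ratios), which is borrowed largely from other probe sets. The 9050 probe sets with the lowest mean signal, below about 76.8, were not tested. Since bulk RNA was measured, fewer cells that carry class II transcripts and less of these transcripts per cell cannot be told apart.

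In the fit as reported, signals were lower in Icsbp-deficient GMP for H2-DMa, on its brightest probe set, by 1.92 times, and for Cd74, by 2.10 times. Neither call held under every setting. A dimmer H2-DMa probe set, on the MOE430_2 arrays alone, had a ratio of 0.19 and no test. H2-Aa, on its brightest probe set, and H2-Eb1 also had lower signals and a limma adjusted p under the threshold. However, these 2 were tested only because of their wild type arrays. Their mean log2 levels were 6.50 and 6.82 in Icsbp-deficient GMP, under the level of 6.99 required for testing, against 7.93 and 7.89 in wild type GMP. With all shared probe sets tested, the limma adjusted p was 0.0328 for H2-DMa, 0.084 for Cd74, 0.156 for H2-Aa and 0.167 for H2-Eb1, so H2-DMa alone of the 4 was called. H2-Ab1 and H2-Oa were not called, and Ciita was too dim to test. Of the 11 shared probe sets 7 were tested, 4 were called lower and 0 higher, at a limma adjusted p under 0.05. Over all probe sets tested, 2.14% were called lower and 2.99% higher. At an unadjusted p under 0.05 the member counts were also 4 and 0, where 9.27% of all probe sets tested were lower and 9.31% higher. Since H2-Aa and H2-Eb1 entered the test through wild type alone, the count over tested members is not used as support. Over all 11 shared probe sets the median ratio was -0.18, against -0.003 over all shared probe sets, with members from -1.44 to 0.13. In 6 of the 11 the ratio was below 0 on both array types, a pattern seen in 29.3% of all shared probe sets.

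For the alpha and beta chains of I-A, the class II molecule of most laboratory strains, a fall was called for the brightest H2-Aa probe set alone. For H2-Aa, the alpha chain, the brightest probe set (1435290_x_at) had a signal of 81.7 in Icsbp-deficient and 150 in wild type GMP on the 430A arrays. On the MOE430_2 arrays it was 11.3 in Icsbp-deficient and 253 in wild type GMP. Within each array type the Icsbp-deficient signal was the lower, and the Icsbp-deficient MOE430_2 signal lay far under the added offset. The ratios were -0.60 and -2.28, with a mean of -1.44 ± 0.34 (2.71-fold lower, limma adjusted p = 0.0416, or 0.156 without the filter). The suffix x marks probe sets that may also read related transcripts. The other H2-Aa probe sets were dim and not tested. Signals of 1452431_s_at were 54.4 in Icsbp-deficient and 72.4 in wild type GMP on the 430A arrays, and 53.9 and 46.7 on the MOE430_2 arrays, so the array types differed in sign. On the MOE430_2 arrays alone, 1438858_x_at gave 38.8 in Icsbp-deficient and 67.3 in wild type GMP, a ratio of -0.39, and 1443783_x_at gave 8.51 and 0.312, a ratio of 0.22.

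H2-Ab1, the beta chain that pairs with H2-Aa, was read by 3 probe sets, and none was called. The brightest (1450648_s_at) had 220 in Icsbp-deficient and 174 in wild type GMP on the 430A arrays, and 210 and 219 on the MOE430_2 arrays. Its mean ratio was 0.13 ± 0.18 (limma adjusted p = 0.772), with a 95% confidence interval from -0.28 to 0.53. The second (1451721_a_at) had 115 in Icsbp-deficient and 138 in wild type GMP on the 430A arrays, and 83.5 and 90.4 on the MOE430_2 arrays. Its ratio was -0.10 ± 0.21 (adjusted p = 0.847), with an interval from -0.58 to 0.37. Neither interval reached the mean ratio of the brightest H2-Aa probe set or of H2-Eb1. Both intervals held the ratio of -0.04 of the dimmer shared H2-Aa probe set (1452431_s_at). The difference between the chains was not tested. The third (1425477_x_at) was not tested, with 19.7 in Icsbp-deficient and 19.5 in wild type GMP on the 430A arrays and 43.8 and 75.1 on the MOE430_2 arrays.

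H2-Eb1, the beta chain of I-E, had lower signals in Icsbp-deficient GMP within each array type. Its single probe set had 172 in Icsbp-deficient and 275 in wild type GMP on the 430A arrays, and 7.57 and 126 on the MOE430_2 arrays. The Icsbp-deficient 430A signal lay above the wild type MOE430_2 signal, so the groups overlapped across array types but not within a type. As for H2-Aa, the difference was larger on the MOE430_2 arrays, at -1.58, than on the 430A arrays, at -0.56. The mean ratio was -1.07 ± 0.26 (2.10-fold lower, limma adjusted p = 0.0465, or 0.167 without the filter). On the MOE430_2 arrays its Icsbp-deficient signal was again far below the offset, so the size of that difference is set in part by the offset. The I-E alpha chain gene H2-Ea, which is not functional in C57BL/6 mice, was read at 14.4 in Icsbp-deficient and 27.6 in wild type GMP on the 430A arrays and 16.7 and 39.9 on the MOE430_2 arrays by the brightest of its probe sets, and was not tested.

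**Figure D2:**
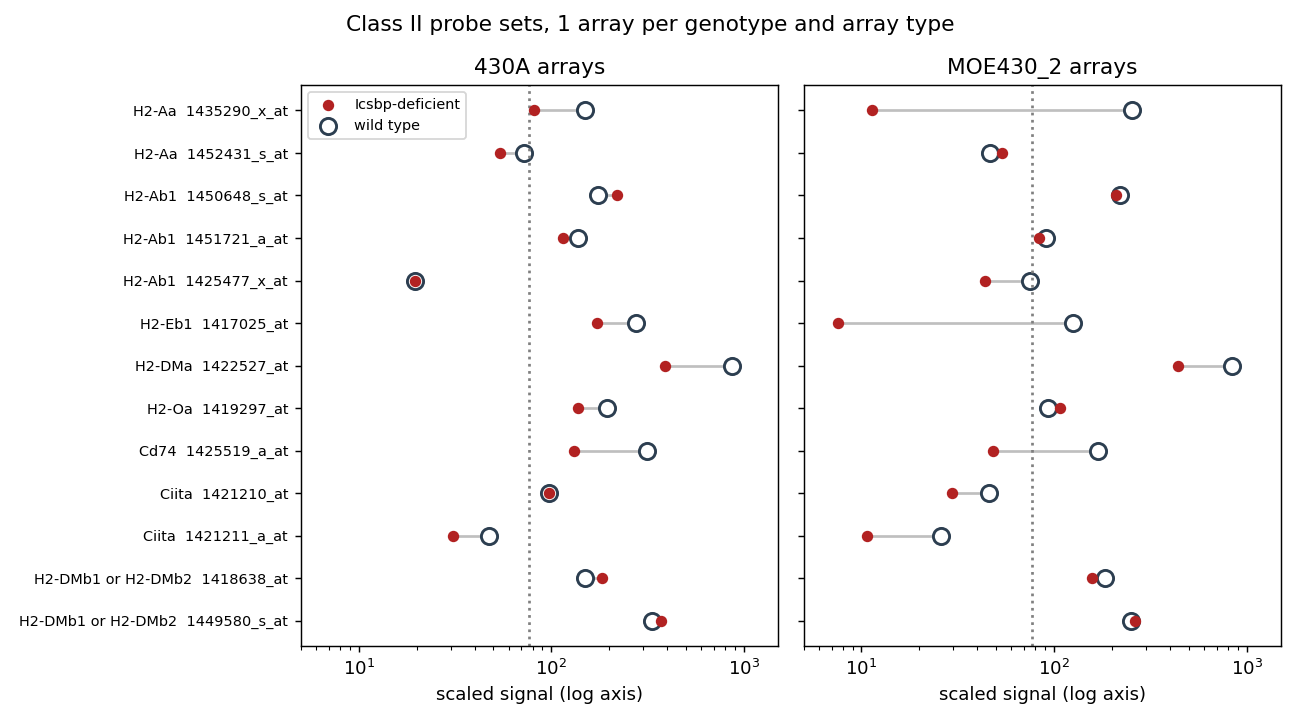
Scaled signal (log axis) of the 11 shared class II probe sets and of the 2 probe sets that name both H2-DMb1 and H2-DMb2, on the 430A arrays (left) and the MOE430_2 arrays (right), with 1 array per point, Icsbp-deficient as filled and wild type as open circles. The dotted line marks the level of 76.8 below which probe sets were on average not tested. H2-Aa and H2-Eb1 stand widest apart on the MOE430_2 arrays. The Icsbp-deficient points of H2-DMa and Cd74 lie left of the wild type points on both types.

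Cd74, the invariant chain, had 132 in Icsbp-deficient and 313 in wild type GMP on the 430A arrays, and 48.2 and 170 on the MOE430_2 arrays. The ratio was below 0 on both array types, as in 29.3% of all shared probe sets. Both ratios were close to 2-fold, at -1.0 and -1.13, and the mean was -1.07 ± 0.20 (2.10-fold lower, limma adjusted p = 0.0137). H2-DMa, the alpha chain of the peptide exchange molecule DM, was lower with the smallest p of the members. It had 392 in Icsbp-deficient and 871 in wild type GMP on the 430A arrays, and 442 and 842 on the MOE430_2 arrays. Within each array type the Icsbp-deficient signal lay below the wild type signal. The ratios were -1.06 and -0.82, with a mean of -0.94 ± 0.15 (1.92-fold lower, limma adjusted p = 0.00721). A dim H2-DMa probe set of the MOE430_2 array (1459872_x_at) did not show this fall, with 72.5 in Icsbp-deficient and 58.9 in wild type GMP.

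The beta chain of DM could not be read apart from its neighbour, since both of its probe sets name H2-DMb1 and H2-DMb2. The brighter (1449580_s_at) had 372 in Icsbp-deficient and 333 in wild type GMP on the 430A arrays, and 264 and 252 on the MOE430_2 arrays. Its ratio was 0.12 ± 0.16 (limma adjusted p = 0.76), with an interval from -0.25 to 0.48. The other (1418638_at) had a ratio of 0.04 (adjusted p = 0.943), and the shared probe set of H2-DMb2 alone had -0.05 (adjusted p = 0.939). The MOE430_2 array held 2 more for H2-DMb2 alone, with ratios of 0.39 and -0.26 and no test. The 3 shared DM beta probe sets were not called, with intervals that did not reach the ratio of H2-DMa, and the difference from H2-DMa was not tested.

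H2-Oa, the alpha chain of DO, had 138 in Icsbp-deficient and 194 in wild type GMP on the 430A arrays, and 108 and 93.2 on the MOE430_2 arrays. The array types differed in sign, at -0.39 and 0.21, and the mean of -0.09 ± 0.22 was not called (limma adjusted p = 0.873, interval from -0.58 to 0.40). H2-Ob, the beta chain of DO, was on the MOE430_2 array alone, with signals of 31.8 in Icsbp-deficient and 30.9 in wild type GMP and a ratio of 0.01.

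Ciita, the transactivator of the family, was dim on all arrays and was not tested. Its brightest probe set had 96.9 in Icsbp-deficient and 97.5 in wild type GMP on the 430A arrays, and 29.6 and 46.1 on the MOE430_2 arrays. The second had 30.8 in Icsbp-deficient and 47.4 in wild type GMP on the 430A arrays, and 10.7 and 25.9 on the MOE430_2 arrays, with ratios of -0.25 and -0.31. A probe set on the MOE430_2 array alone read 4.73 in Icsbp-deficient and 2.18 in wild type GMP. No fall or rise of Ciita could be read at these signals.

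**Figure D3:**
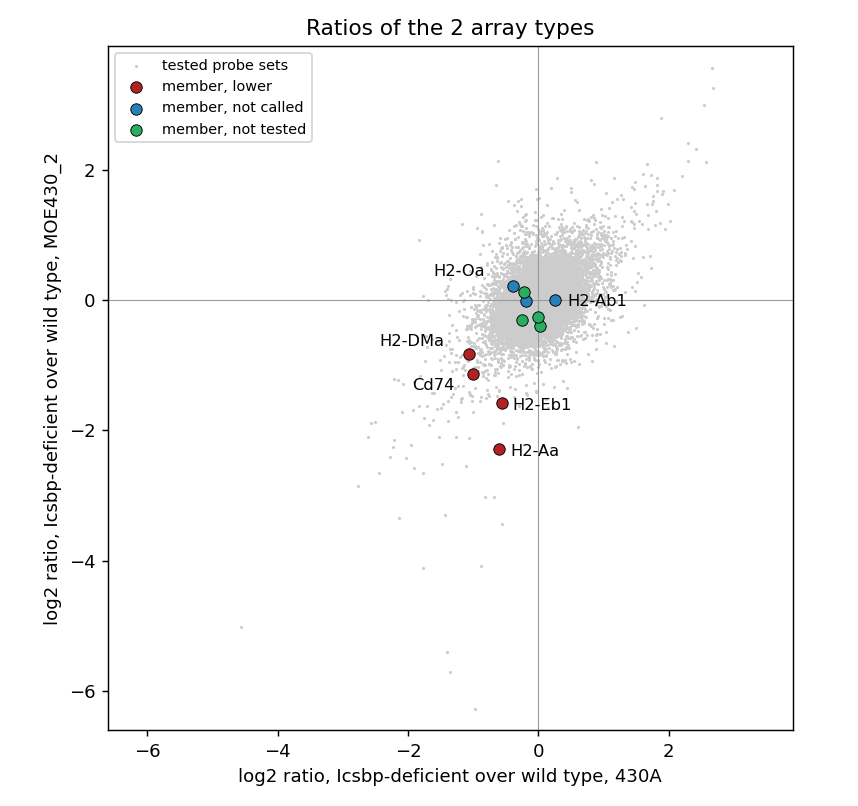
Log2 ratio of Icsbp-deficient over wild type on the 430A arrays (x axis) and on the MOE430_2 arrays (y axis) for the 13576 tested probe sets (grey) and the 11 shared class II probe sets (coloured by call). H2-DMa and Cd74 lie near the diagonal, H2-Aa and H2-Eb1 lie below it, and the other members lie within the grey mass around 0.

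The proteases that cut the invariant chain and other genes of class II processing moved in both directions. Of 11 genes on this list 9 were measured and 7 tested, of which 2 were lower and 1 higher, with a list median of 0.10. Over all probe sets tested, 2.14% were called lower and 2.99% higher. Ctss, the cathepsin that removes the last part of the invariant chain in many antigen-presenting cells, had 275 in Icsbp-deficient and 496 in wild type GMP on the 430A arrays. On the MOE430_2 arrays it had 161 in Icsbp-deficient and 552 in wild type GMP, and its mean ratio was -1.12 ± 0.20 (limma adjusted p = 0.0117). Ctsh, a lysosomal aminopeptidase, was lower at -2.24 (adjusted p = 8.3e-05), and Ctsb, an abundant lysosomal cathepsin, was higher at 0.54 (adjusted p = 0.0165). Ctsl, at 0.55, and the thiol reductase Ifi30, which unfolds antigens, at -0.42, were not called (adjusted p = 0.0657 and 0.239).

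The factors that bind the X and Y boxes were not called in 7 of 7 cases by limma, and 0 had an unadjusted p under 0.05. Most probe sets were likewise not called. Over all probe sets tested, 2.14% were called lower and 2.99% higher, and 18.6% had an unadjusted p under 0.05. The 7 factors were the RFX subunits Rfx5, Rfxank and Rfxap, the NF-Y subunits Nfya, Nfyb and Nfyc, and Creb1. Their mean ratios lay between -0.24 for Creb1 and 0.15 for Rfxank, and their list median was 0.05. Genes of the signals that switch on Ciita were called in 1 of 7 tested cases, with a list median of 0.18. Ifngr1, a chain of the interferon gamma receptor, was 1.95-fold higher at 0.96 (limma adjusted p = 0.00169), while Ifngr2, the other chain, was at 0.09 (adjusted p = 0.837). Irf1, an activator of Ciita downstream of interferon gamma, was at 0.55 (adjusted p = 0.0544). The targeted gene Irf8 gave mean ratios of -0.48 and 0.06 on its probe sets (adjusted p = 0.124 and 0.832). No source used here states which part of Irf8 was deleted, so these values do not check the labels.

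**Figure D4:**
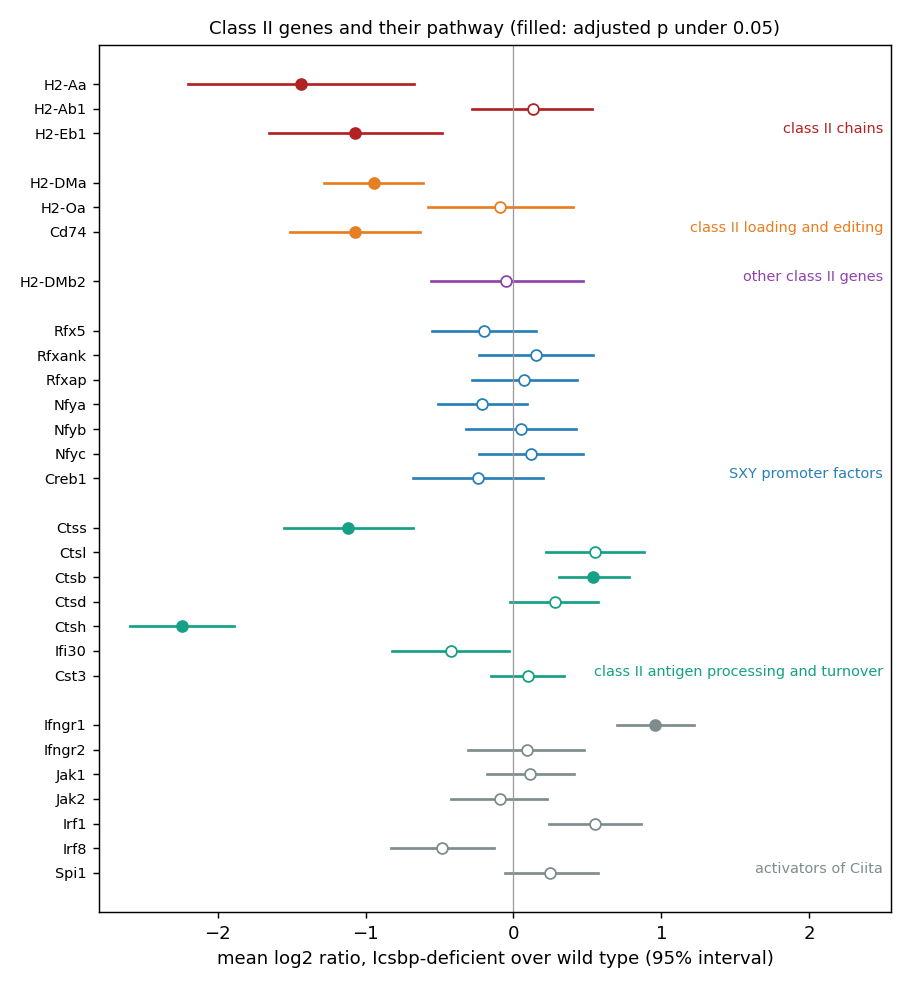
Mean log2 ratio of Icsbp-deficient over wild type with its 95% interval from limma (n = 2 ratios) for the brightest tested probe set of each class II and pathway gene, coloured by list, with filled points at an adjusted p under 0.05. H2-Aa, H2-Eb1, H2-DMa, Cd74, Ctss and Ctsh are filled on the left, Ctsb and Ifngr1 on the right, and the 7 promoter factors are open and near 0.

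The class II chain, DM and DO genes lie together on chromosome 17, whereas Ciita and Cd74 lie on other chromosomes. Between H2-Oa and H2-Ea the RefSeq annotation places 5 other protein-coding genes, and 0 of them were called by limma, with 3 at an unadjusted p under 0.05, a threshold passed by 18.6% of all probe sets tested. These 3 were the immunoproteasome subunits Psmb9, at 0.36, and Psmb8, at -0.36, and the peptide transporter chain Tap1, at 0.52. Brd2, a chromatin reader, was at 0.12 and Tap2, the partner of Tap1, at 0.17.

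Likeness to Cd74 was measured as the distance between the pairs of ratios of the 2 array types, over 7814 other genes and 4 arrays. The nearest genes were the chemokine Ccl6, Slc45a3, Lgalsl, AI504432 and Cttn, at distances of 0.03 to 0.064 on the log2 scale. In Icsbp-deficient GMP the mean log2 levels of Ccl6, Slc45a3 and Cttn were 6.91, 6.46 and 6.64, under the level of 6.99 required for testing. These genes were thus tested only through wild type. AI504432 was near that level and Lgalsl above it, at 7.80. Ccl6 had 82.6 in Icsbp-deficient and 219 in wild type GMP on the 430A arrays, and 57.1 and 194 on the MOE430_2 arrays. H2-Aa had no gene as close. Its nearest were Csrp3, Ms4a2, Klf1, Ica1 and Gdf3, at distances of 0.4 to 0.79. Klf1 was not called (limma adjusted p = 0.104). Each distance rests on 2 ratios per gene, and how densely genes lie around each pair was not measured. For H2-Aa 1 of the ratios rests on an Icsbp-deficient signal of 11.3, under the offset. Csrp3, Ms4a2 and Klf1 were likewise under the level for testing in Icsbp-deficient GMP, at 6.62, 6.95 and 6.89, while Ica1 and Gdf3 were above it. Ms4a2, the beta chain of the immunoglobulin E receptor of mast cells and basophils, had 129 in Icsbp-deficient and 322 in wild type GMP on the 430A arrays, and 35.9 and 326 on the MOE430_2 arrays.

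Markers of B cells, dendritic cells, monocytes and macrophages, T cells and GMP were read beside these values. Bulk RNA cannot tell whether such a marker was expressed by GMP or by other cells in the sort. For comparison, 2.14% of all probe sets tested were called lower and 2.99% higher, and 18.6% had an unadjusted p under 0.05. Of 11 B cell markers 10 were measured, 4 were tested and 0 were called by limma, with 0 at an unadjusted p under 0.05. Their summed signal was 2470 and 3184 on the Icsbp-deficient arrays and 2799 and 2672 on the wild type arrays, most of it from Ighm. Of 12 dendritic cell markers 10 were measured and 4 tested, of which Id2 was higher at 0.85 (limma adjusted p = 0.044) and 0 were lower. Their summed signal was 1377 and 1168 on the Icsbp-deficient arrays and 1430 and 982 on the wild type arrays. Of 12 monocyte and macrophage markers 10 were measured and 8 tested. Ly86, at -4.79, and Klf4, at -2.74, were lower, and Ccr2, at 1.43, and Cd68, at 1.03, were higher. Sums of the monocyte and macrophage markers were 17659 and 25861 on the Icsbp-deficient arrays against 16606 and 21703 on the wild type arrays. Most of this signal came from Ms4a3, at percentiles of 99.2 to 99.4, so the sums say little of the other markers. The measured markers of T cells, 6 of 8, were all too dim to test, with sums of 261 and 93.0 on the Icsbp-deficient arrays and 275 and 128 on the wild type arrays. Among them Lat, an adaptor of T cell receptor signalling, had 26.0 and 10.4 on the Icsbp-deficient arrays and 118 and 61.1 on the wild type arrays, a mean ratio of -1.0. Cd3e, a chain of the T cell receptor complex, had 120 and 15.1 on the Icsbp-deficient arrays and 35.2 and 12.2 on the wild type arrays. Cd3g, Cd3d, Cd4 and Cd8a had mean ratios between -0.08 and 0.17. In each list 0 of the measured markers had a deposited value of 0 on any array. Among 8 GMP markers, the granule genes Mpo, Elane, Prtn3 and Ctsg had ratios between -0.02 and 0.05, Cd34 was lower at -1.73, and Fcgr3 and Cebpa were higher at 1.00 and 0.69. The part of these cell types in the class II values was not tested.

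The calls of the 4 lower genes did not hold under every setting. H2-DMa stayed below the threshold with an offset of 16 or 200, without the filter, with a filter at the 60th percentile and without the intensity trend, at adjusted p from 0.00268 to 0.0387. With the values as deposited, without scaling, none of the 4 passed (adjusted p = 0.83 for each). Cd74 lost its call without the filter (adjusted p = 0.084). H2-Aa and H2-Eb1 lost theirs with an offset of 16, without the filter and without the trend, at adjusted p from 0.0801 to 0.167. Without array type as a block, none of the 4 passed, at adjusted p of 0.776 for H2-DMa and 1 for the other 3. With 1 array left out as well, all 4 kept a negative ratio and none passed. H2-Eb1 was at -0.10 without the Icsbp-deficient MOE430_2 array and at -2.04 without the Icsbp-deficient 430A array. Both fits set 1 Icsbp-deficient array against wild type arrays of both types, so differences between array types enter these values. Wild type log2 levels of H2-Eb1 were 8.35 on the 430A and 7.43 on the MOE430_2 array. Within the array types its ratios were -0.56 and -1.58.

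**Figure D5:**
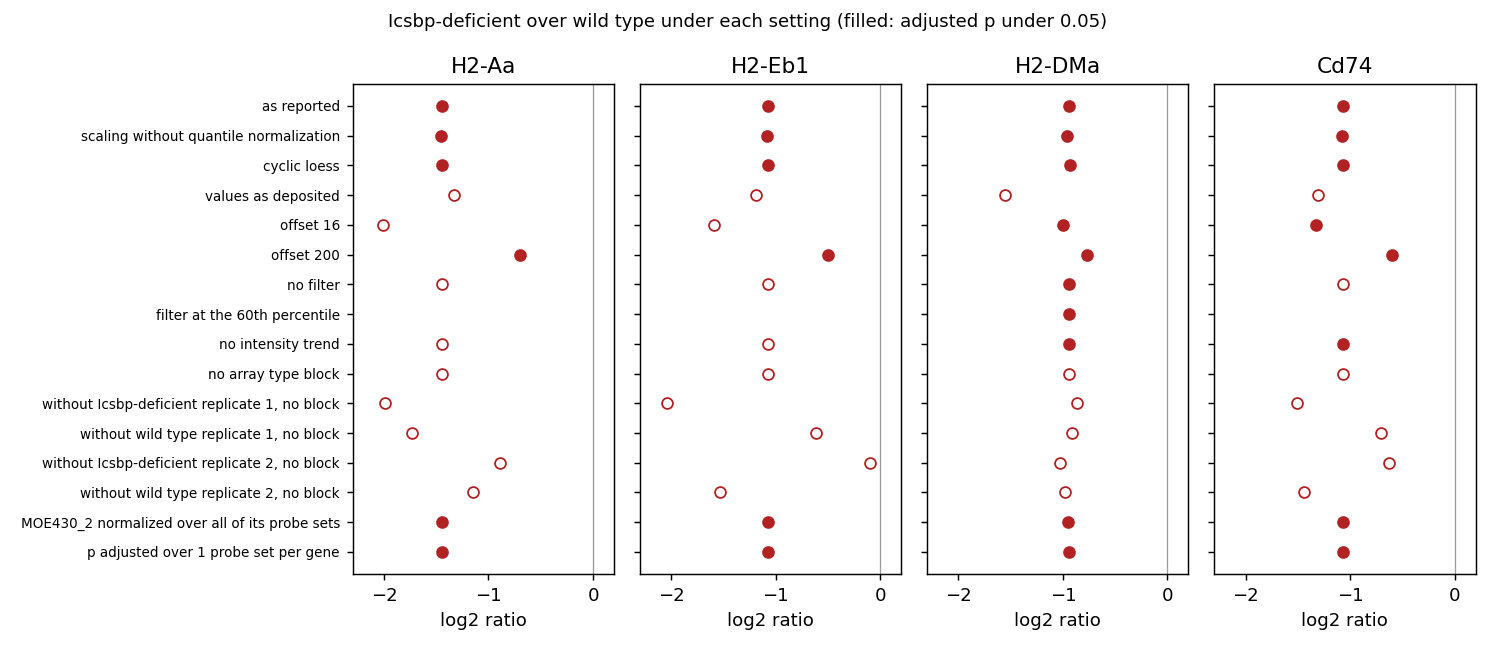
Log2 ratio of Icsbp-deficient over wild type for the 4 genes called lower, under each setting (rows), with filled points at a limma adjusted p under 0.05; replicate 1 is the 430A and replicate 2 the MOE430_2 array. All points lie left of 0, though a change of filter, trend or p-value adjustment cannot move a point. H2-DMa moves least, between -1.55 and -0.77, and H2-Eb1 most, between -2.04 and -0.10. No point is drawn where a gene was not tested.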

How the data were processed

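The authors deposited 1 linear intensity for each probe set and array. Per the submitters' processing notes GCOS was used for the MOE430_2 arrays. No source used here names the software for the 430A arrays. The trimmed mean (2% from each end) of the deposited signals was 167 on the Icsbp-deficient and 498 on the wild type 430A array, and 159 and 160 on the MOE430_2 arrays. The 22626 shared probe sets, with 64 controls left out, were scaled to a trimmed mean of 500, an offset of 50 was added and log2 was taken. The arrays of each type were then quantile normalized against each other. MOE430_2 probe sets not on the 430A array were normalized with all probe sets of that type and have 1 ratio and no test.

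Probe sets under the 40th percentile of the mean over 4 arrays were not tested. limma 3.58.1 in R 4.3.3 (array type as a block, 1 residual degree of freedom, 8.89 prior degrees of freedom in the median, intensity trend) gave two-sided p-values, Benjamini-Hochberg adjusted over all probe sets tested, with a threshold of 0.05. Nothing in the labels ties the preparations of a type to each other, and the number of arrays limits the precision. Symbols came from the platform annotation, updated through RefSeq (GRCm38.p6) for 20351 of 20380 shared probe sets with 1 symbol. Probe sets with several symbols (691) or none (1555) name no gene here.

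All probe sets of the members are described. A pathway gene was represented by its brightest shared probe set and named with its value where it passed, together with Irf8; genes named without a pass were chosen after their values were seen. Members and lists were chosen with earlier results of these data known. Alternatives changed the normalization, scaling, offset, filter, trend, block and arrays. Those added after the data were seen were each array type alone and p-values adjusted over 1 probe set per gene.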

Additional observations from a re-analysis of the deposited data

How the results depend on the processing

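The count of 4 members called lower was the same with scaling alone, with cyclic loess and with an offset of 200. It was also 4 with the MOE430_2 arrays normalized over all of their probe sets. Adjusting p-values over 1 probe set per gene likewise gave 4. Each of those settings kept the filter on dim probe sets. In the fit as reported, H2-Aa and H2-Eb1 passed this filter only because of their wild type arrays. The unchanged count is therefore not used as support. The count was 0 with the values as deposited, 2 with an offset of 16 and 2 without the intensity trend. It was 1 without the filter and 1 with a filter at the 60th percentile, which left only H2-DMa tested. Without array type as a block, the replicate block of this design, it was 0, and it was 0 to 0 with each array left out of that model. Over all probe sets, the count without the block was 1 lower and 0 higher, against 290 and 406 with it. Unscaled values gave 0 and 0. Without the filter it was 97 and 169, and without the trend 120 and 147. No member was called higher under any of these settings.

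The members' median ratio of -0.18 was -0.57 on unscaled values, against a median of -0.48 over all shared probe sets on that scale. It was -0.26 with an offset of 16 and -0.08 with an offset of 200, -0.25 from the 430A pair and -0.31 from the MOE430_2 pair. Without the block it was -0.49, -0.46, -0.10 and -0.07 with the Icsbp-deficient 430A, wild type MOE430_2, wild type 430A and Icsbp-deficient MOE430_2 array left out. The 4 lower genes kept their direction under all settings in which they were tested. Changes of filter, trend or p-value adjustment, or of the block with all arrays kept, cannot alter a ratio. On unscaled values the median over all shared probe sets was itself -0.98 for the 430A pair. The kept direction is therefore partly fixed in advance. Among uncalled members that were tested, H2-Ab1 (1450648_s_at) changed sign to -0.45 with the values as deposited, H2-Ab1 (1451721_a_at) to 0.03 and H2-Oa to 0.01 without the Icsbp-deficient MOE430_2 array, and to 0.13 and 0.31 without the wild type 430A array. With each array left out these ranged from -0.33 to 0.13 and from -0.49 to 0.31. Of the members too dim to test, Ciita (1421210_at) ranged from -0.57 to 0.31, H2-Ab1 (1425477_x_at) from -0.60 to 0.24 and H2-Aa (1452431_s_at) from -0.22 to 0.13 with each array left out. The fits with 1 array left out had no array type block, so differences between array types enter their ratios. The unscaled values carry the shift of the 430A pair given above. Beyond this the cause of these changes was not tested, apart from the fewer probe sets tested under the stricter filter. With the block and 1 array left out no test was possible, since no residual degree of freedom remains.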
